A study of Rattus norvegicus with 49 samples.

Results

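Expression of the glucocorticoid receptor and of a small set of its known target genes was examined in the liver of rats under diet restriction. Of 8 genes chosen by name, 7 were measured on the arrays among 14217 genes: Nr3c1, Hsd11b1, Fkbp5, Tsc22d3, Klf9, Sgk1 and Dusp1. The eighth, Zbtb16, had no probe set under its symbol or gene identifier and was not analysed here. The genes were chosen with earlier results of these data known, so counts of calls among them are a description. A member was included by its symbol alone, and where several probe sets carried that symbol, the one that was brightest on average was used. On the rat genome (GRCr8, from RefSeq) the genes lie at chr18:31522783-31644508 (Nr3c1), chr13:107277526-107327462 (Hsd11b1), chr20:6458931-6577227 (Fkbp5), chrX:109006410-109066389 (Tsc22d3), chr1:230126646-230151641 (Klf9), chr1:24799391-24916886 (Sgk1) and chr10:17184853-17187646 (Dusp1). Intensities of different probe sets do not rank the amounts of their mRNAs, so levels are compared within a gene only.

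The livers came from male Sprague-Dawley rats, 8 to 10 weeks of age when treatment began, all given powdered feed, with 1 Affymetrix array for each of 49 rats. Group 1 had free access to feed up to necropsy. The rats of group 2 ate ad libitum until an overnight fast. In groups 3, 4 and 5 the food was cut by 15%, 30% and 60%, and the same overnight fast followed. Every group was sampled after 4 or 14 days, with 5 animals each time, except for group 1 after 14 days, which had 4. The sample labels and the methods leave group 1 unfasted, whereas the design text of the series has all animals fasted before necropsy. Rats of the 2 days were different animals, and the day is the only label of a possible batch, so day and batch cannot be told apart. The arrays had median log2 intensities of 6.34 to 6.43, and the median correlation between arrays of a group was 0.991 to 0.9935.

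The labels name the tissue as liver, and the methods speak of hepatocytes. The summed intensity of 9 hepatocyte markers lay between 164027 and 178404 in all rats. Kupffer cell and macrophage markers were also present, with a summed intensity over 7 genes of 7241 to 15598. A smaller number of cells of one type and less RNA per cell cannot be told apart in such bulk samples.

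Corticosterone, the main glucocorticoid of the rat, is released from the adrenal gland with a daily rhythm and in fasting and stress. In hepatocytes it binds the receptor encoded by Nr3c1, which is held in the cytoplasm by heat shock proteins and co-chaperones, moves to the nucleus and switches on genes of glucose production and amino acid breakdown. Hsd11b1 makes active corticosterone from its inactive keto form inside the cell. Among the targets, Fkbp5 encodes a co-chaperone that lowers the receptor's affinity for the hormone, and Tsc22d3 encodes GILZ, an anti-inflammatory leucine zipper protein. Klf9 is a zinc finger transcription repressor, Sgk1 a kinase related to Akt, and Dusp1 a phosphatase that turns off MAP kinases. Sgk1 and Dusp1 also respond to other signals, such as feeding, growth factors and cell stress.

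The receptor binds as a dimer to a pair of inverted hexamers, 3 bases apart, and the stretches before the start sites of Klf9 and Fkbp5 are shown because these are the targets with calls in group 5 that were kept when any 1 rat was left out. The sequences are from RefSeq (GRCr8), 250 bases 5′ to 3′ on the gene's own strand and ending just before an annotated start. The Klf9 stretch is chr1:230126396-230126645 on the plus strand and the Fkbp5 stretch chr20:6543556-6543805 on the minus strand. The Klf9 stretch ends just before the gene span given above. That of Fkbp5 lies inside the gene's span, so it precedes an internal start and not the 5′ end of the span. A search of both strands found no such hexamer, AGAACA, in either stretch, and all bases are given in small letters.
Klf9: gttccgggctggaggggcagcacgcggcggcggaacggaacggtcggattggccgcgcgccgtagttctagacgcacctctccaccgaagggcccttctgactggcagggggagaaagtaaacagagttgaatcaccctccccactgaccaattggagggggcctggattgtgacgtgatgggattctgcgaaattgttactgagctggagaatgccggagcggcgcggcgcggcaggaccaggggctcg
Fkbp5: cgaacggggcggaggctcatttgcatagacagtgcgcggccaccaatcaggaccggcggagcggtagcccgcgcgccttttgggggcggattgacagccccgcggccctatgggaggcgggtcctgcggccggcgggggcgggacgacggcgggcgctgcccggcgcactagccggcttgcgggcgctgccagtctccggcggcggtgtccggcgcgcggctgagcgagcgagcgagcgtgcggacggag

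Of the 8 genes, 6 had a promoter in the RefSeq table, with 11 windows of 250 bases before and 50 after a start in all. Hsd11b1 and Zbtb16 had no entry. The windows of Nr3c1, Fkbp5 and Sgk1, and some of those of Tsc22d3, lay inside the gene spans given above, at internal starts. The 6-base hexamer AGAACA, searched on both strands, was found in 0 of the 11 windows and in 20.7% of 33469 rat promoter windows of that length. The palindrome of a pair of hexamers, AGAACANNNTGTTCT, was found in 0.0149% of all windows. A relaxed form, NGNACANNNTGTNCN, was found in 0.439% of them and in no window of the genes described here. The hexamer is contained in the full palindrome, so the counts are not independent, and these letters say nothing of sites outside the windows.

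**Figure D1:**
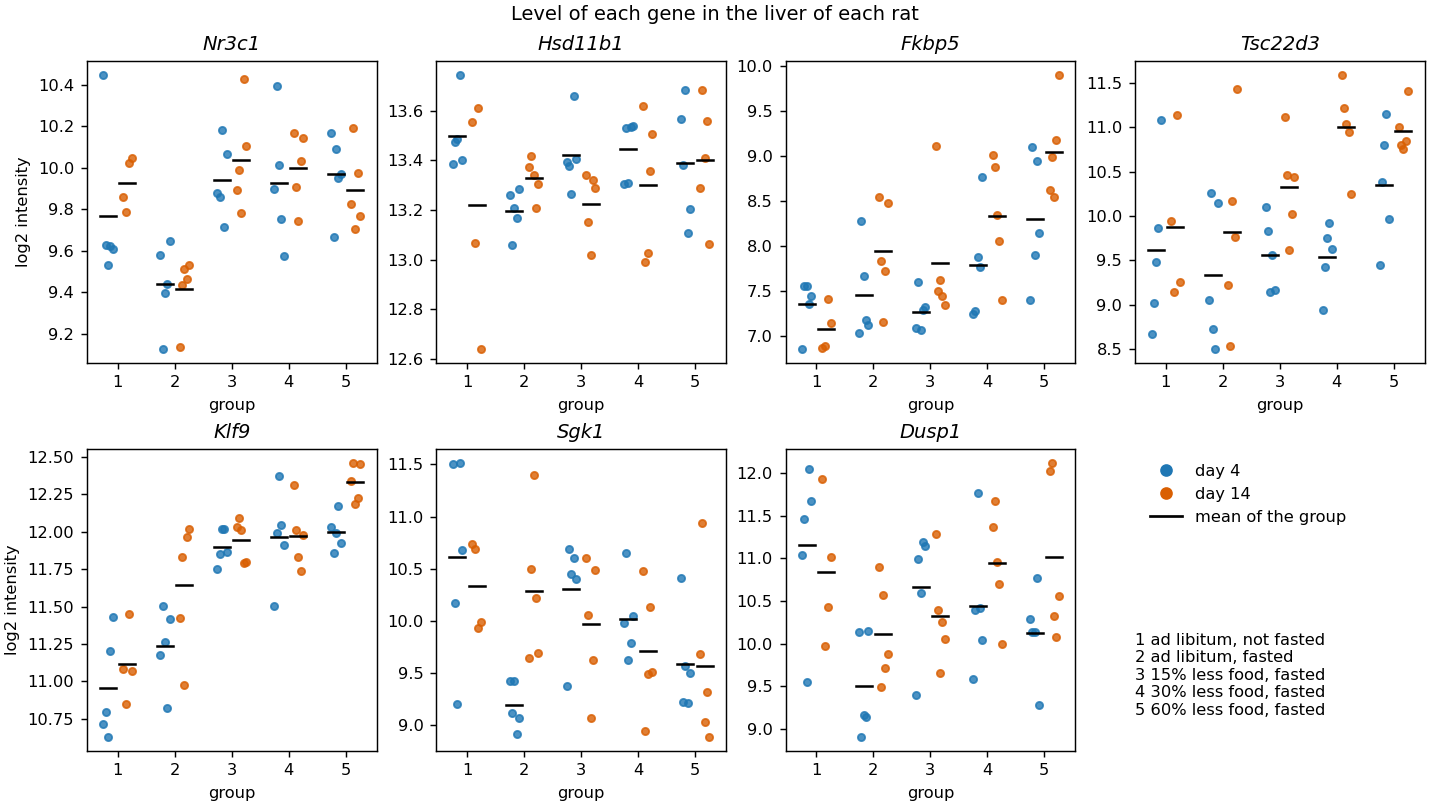
Log2 intensity (vertical axis) of the 7 measured genes in every rat, by group (horizontal axis) and day (blue, day 4; orange, day 14), with black lines at the group means. By their means, Nr3c1 was lowest in group 2 and Klf9 in group 1 on both days, and Fkbp5 reached its highest mean, 9.05, in group 5 at day 14.

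The rats of groups 1, 3, 4 and 5 were set against those of group 2 on that day by limma, with a gene called at an adjusted p (Benjamini-Hochberg over all 14217 genes) under 0.1. These comparisons ask what restriction, or the lack of a fast, changed against fed and then fasted rats, and all those of 1 day share the same group 2 rats. At day 4, 3 of the 7 measured genes were higher in group 1, where 21.3% of all genes were called. In group 3, 1 was higher, with 0.253% of all genes called. In group 4, 4 were higher, with 5.43% of all genes called, and in group 5, 2 were higher, with 7.14% called.

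At day 14, 1 of the 7 genes was higher and 1 lower in group 1, where 13.2% of all genes were called. In group 3, 1 was higher with 6.54% of all genes called, and in group 4, 1 was higher with 12.8% called. In group 5, 4 were higher with 19.8% called. Over the 8 comparisons the 7 genes gave 17 calls upwards and 1 downwards, several of them for Nr3c1 against the same group 2 rats. All genes gave 16 to 1388 calls upwards and 20 to 1637 downwards in a comparison. The median log2 difference of the 7 genes from group 2 at day 4 was 0.30, 0.50, 0.49 and 0.62 in groups 1, 3, 4 and 5. At day 14 it was 0.05, 0.22, 0.39 and 0.69. The median of all genes was at most 0.0129 in size in each of the 8 comparisons. Rats of groups 1, 3, 4 and 5 did not overlap group 2 in 1847, 289, 692 and 839 genes at day 4. At day 14 these counts were 1704, 814, 1234 and 1754, of 14217 genes.

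**Figure D2:**
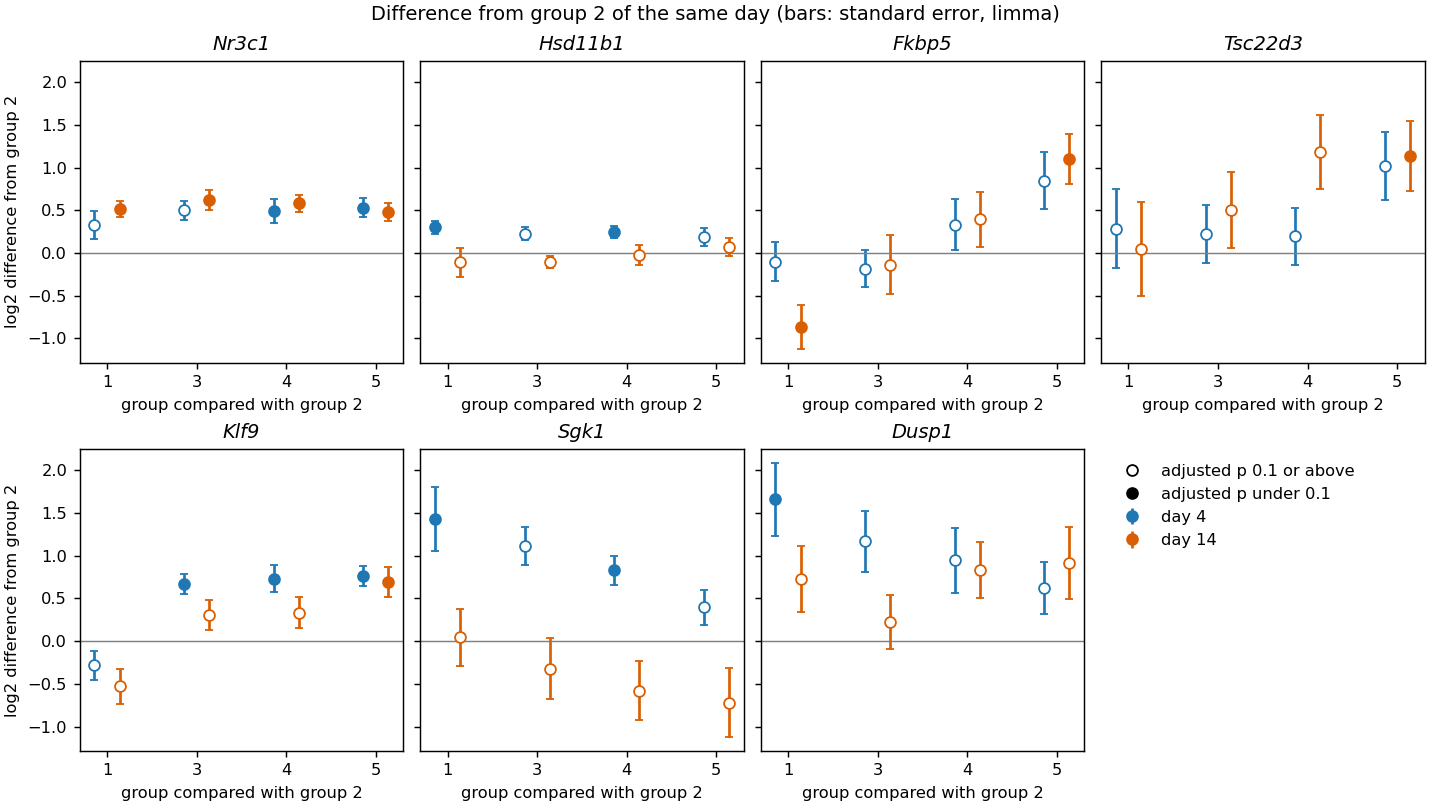
Log2 difference from group 2 of the same day (vertical axis) with its standard error from limma, for groups 1, 3, 4 and 5 (horizontal axis) at day 4 (blue) and day 14 (orange). Filled points passed an adjusted p of 0.1. Nr3c1, Tsc22d3 and Dusp1 lay above 0 in all 8 comparisons. Sgk1 and Hsd11b1 lay above 0 at day 4 in all 4 groups. Fkbp5 was highest in groups 5 and 4, in this order, on both days.

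Nr3c1, the receptor gene, was higher than in group 2 in groups 4 and 5 at day 4 and in all 4 other groups at day 14. The log2 intensities of group 2 at day 4 were 9.13, 9.39, 9.44, 9.58 and 9.65. Those of group 5 were 9.66, 9.95, 9.97, 10.09 and 10.17. No rat of group 5 was as low as the highest rat of group 2, although the gap between them was narrow. The difference was 0.53 (standard error 0.11, limma adjusted p = 0.0239), or 1.45-fold. In group 4 the values were 9.57, 9.75, 9.90, 10.01 and 10.39, of which the lowest fell within the range of group 2. The difference was 0.49 (standard error 0.14, limma adjusted p = 0.0983), a call that ended when any 1 of 9 of the 10 rats was left out, all except group 4 replicate 5, with adjusted p up to 0.182. It also ended with array weights, a further quantile normalization or all probe sets tested (adjusted p up to 0.114). In group 3 the 5 rats, from 9.71 to 10.18, all lay above group 2, but the difference of 0.50 did not pass (limma adjusted p = 0.142), although it did in the fit shared by all groups (adjusted p = 0.0898). Group 1 had 4 rats between 9.53 and 9.63 and replicate 1 at 10.45, and its difference of 0.33 did not pass either (limma adjusted p = 0.224).

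At day 14 the same gene separated group 2 from every other group without overlap. Taken singly, groups 1, 3, 4 and 5 were separated from group 2 in 1704, 814, 1234 and 1754 of all 14217 genes. The rats of group 2 had Nr3c1 log2 intensities of 9.14, 9.44, 9.46, 9.51 and 9.53. Those of group 5 had 9.70, 9.76, 9.82, 9.97 and 10.19, and those of group 3 had 9.78, 9.89, 9.99, 10.10 and 10.43. All rats of both restricted groups were thus above all fasted rats given full feed. The differences were 0.62 in group 3 (standard error 0.12, limma adjusted p = 0.0101), 0.58 in group 4 (standard error 0.10, adjusted p = 0.00397) and 0.48 in group 5 (standard error 0.11, adjusted p = 0.0103). Group 1, which was fed and not fasted, was also higher at day 14, by 0.51 (standard error 0.09, limma adjusted p = 0.00778), with rats at 9.79, 9.86, 10.02 and 10.04. Leaving out any 1 rat kept each of these 4 calls, with adjusted p of at most 0.0314.

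Among the groups other than group 2, neighbouring means of the receptor gene differed by less than the larger of their SDs. At day 4 the order from high to low was group 5, 3, 4, 1 and 2, and neighbours in this order overlapped. At day 14 it was group 3, 4, 1, 5 and 2, and only group 2 stood apart from its neighbour. Restriction by 60% and by 15% differed by 0.03 at day 4 and −0.15 at day 14 (standard errors 0.11 and 0.13, limma adjusted p = 0.94 and 0.567). A second, dimmer probe set for Nr3c1 (mean log2 6.88, against 9.83 for the probe set used) gave differences from group 2 of 0.32 to 0.58, above 0 in all 8 comparisons. Tested among all 31042 probe sets, it passed in group 4 at day 4 (adjusted p = 0.0772) and after 14 days in groups 3 and 4 (adjusted p = 0.00564 and 0.0153), while group 5 had adjusted p of 0.122 at day 4 and 0.103 at day 14. In group 1 it gave 0.41 at day 4 and 0.35 at day 14 (limma adjusted p = 0.272 and 0.1), and in group 3 at day 4 0.48 (adjusted p = 0.259).

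The group means of Hsd11b1, which regenerates active hormone in the cell, differed little. Its pooled SD within groups was 0.21, larger than that of 85.05% of all genes. Its 10 group means lay between 13.20 and 13.50 on the log2 scale, a range of 0.30. At day 4 the rats of group 2 had 13.06, 13.17, 13.21, 13.26 and 13.28, and those of group 1 had 13.38, 13.40, 13.48, 13.49 and 13.74. All fed rats were above all fasted rats with full feed, by 0.30 on average (standard error 0.08, limma adjusted p = 0.0202), a call lost when all 10 groups shared 1 fit (adjusted p = 0.109). In group 4 at day 4 the difference was 0.25 (standard error 0.07, limma adjusted p = 0.095), which ended without any 1 of 8 of the 10 rats, all except group 4 replicates 1 and 3, with adjusted p up to 0.193, and in the shared fit (adjusted p = 0.337). It also ended with all probe sets tested (adjusted p = 0.122) and after a further quantile normalization (adjusted p = 0.144). At day 14 the differences of Hsd11b1 from group 2 ranged from −0.11 to 0.07 and none passed the test. Group 1 at day 14 had the widest spread for this gene, with rats at 12.64, 13.07, 13.56 and 13.61.

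Fkbp5, the co-chaperone that dampens the receptor, was highest in group 5. At day 14 the rats of group 2 had log2 intensities of 7.16, 7.72, 7.84, 8.48 and 8.55. Those of group 5 had 8.55, 8.62, 8.997, 9.18 and 9.91. The lowest rat of group 5 was just above the highest of group 2. The difference was 1.10 (standard error 0.29, limma adjusted p = 0.025), or 2.15-fold, and it passed without any 1 rat (adjusted p of at most 0.0583). The second probe set for Fkbp5 gave 1.15 (standard error 0.25, limma adjusted p = 0.0104 among all probe sets). Group 4 lay between, with 7.40, 8.06, 8.35, 8.88 and 9.02, and its difference of 0.39 did not pass (limma adjusted p = 0.559).

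Group 5 also had the highest mean of Fkbp5 at day 4, but its rats overlapped with those of group 2. The rats of group 5 had 7.40, 7.91, 8.15, 8.95 and 9.10, against 7.03, 7.13, 7.18, 7.67 and 8.28 in group 2. Of group 5, 2 rats were above all of group 2, and the difference of 0.84 (standard error 0.33) had a limma adjusted p of 0.206, which became 0.0869 without group 5 replicate 1. In group 1 at day 14 the gene was lower than in group 2, by 0.87 (standard error 0.25, limma adjusted p = 0.0635), with rats at 6.87, 6.89, 7.15 and 7.41. This call, the only one downwards, ended without any 1 of group 2 replicates 1 and 5 and group 1 replicates 1, 2 and 4 (adjusted p up to 0.162). It also ended in the fit shared by all groups and with robust empirical Bayes estimates, with adjusted p of at most 0.105. The second probe set gave −0.49 there (limma adjusted p = 0.184).

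Tsc22d3 had its highest means in groups 4 and 5 at day 14. The rats of group 2 at day 14 ranged from 8.54 through 9.22, 9.77 and 10.17 to 11.42 on the log2 scale. Those of group 5 lay close together at 10.75, 10.80, 10.84, 10.997 and 11.40, and those of group 4 at 10.25, 10.94, 11.03, 11.22 and 11.59. One rat of group 2, replicate 5, was thus as high as the restricted rats, and the other 4 were below all of group 5. The difference was 1.13 in group 5 (standard error 0.41, limma adjusted p = 0.0889) and 1.18 in group 4 (standard error 0.44, adjusted p = 0.129). Without group 2 replicate 5 both passed, with limma adjusted p of 0.00446 and 0.0141, and without any 1 of the other 9 rats the call in group 5 ended, with adjusted p up to 0.185. It also ended with robust empirical Bayes estimates (adjusted p = 0.177). The difference in group 4 passed as well without group 4 replicate 5 (adjusted p = 0.0987), in the shared fit (adjusted p = 0.0559) and with array weights (adjusted p = 0.0817).

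The levels of Tsc22d3 in group 5 at day 4 were 9.45, 9.97, 10.38, 10.80 and 11.15, and in group 2 8.50, 8.73, 9.05, 10.15 and 10.26. The groups overlapped, and the difference of 1.01 (standard error 0.40) did not pass (limma adjusted p = 0.201). In groups 1, 3 and 4 at day 4 the differences were 0.29, 0.22 and 0.20, each smaller than its standard error.

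Klf9, the repressor, was the target with the smallest spread within groups, with a pooled SD of 0.26, still larger than that of 90.7% of all genes. At day 4 the rats of group 2 had log2 intensities of 10.82, 11.18, 11.26, 11.42 and 11.50. Those of group 3 had 11.75, 11.85, 11.86, 12.02 and 12.02, and those of group 5 had 11.86, 11.93, 11.99, 12.03 and 12.17. Every rat of groups 3 and 5 was above every rat of group 2, and in group 4 the lowest rat, at 11.50, met the highest of group 2. The differences were 0.66 in group 3 (standard error 0.12, limma adjusted p = 0.0902), 0.73 in group 4 (standard error 0.16, adjusted p = 0.0316) and 0.76 in group 5 (standard error 0.12, adjusted p = 0.0048). The calls in groups 4 and 5 were kept without any 1 rat. That in group 3 ended without any 1 of group 2 replicates 1 and 3 and group 3 replicates 2 to 5, with adjusted p up to 0.202, and with the mean of the gene's probe sets (adjusted p = 0.103).

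At day 14 the group 2 rats had Klf9 values of 10.97, 11.43, 11.83, 11.96 and 12.02. Those of group 5 were 12.19, 12.23, 12.34, 12.45 and 12.46, all above group 2. The difference was 0.69 (standard error 0.17, limma adjusted p = 0.0195), or 1.62-fold, while groups 3 and 4 differed from group 2 by 0.30 and 0.33 (limma adjusted p = 0.441 and 0.344). Group 1 had the lowest means on both days, 10.95 ± 0.35 (SD, n = 5) and 11.11 ± 0.25 (SD, n = 4). Its differences from group 2, −0.28 and −0.53, did not pass (limma adjusted p = 0.305 and 0.148), and the latter passed without group 2 replicate 3 (adjusted p = 0.0249) or in the shared fit (adjusted p = 0.0279). A second probe set of Klf9 rose in group 5 by 0.79 at day 4 and 0.63 at day 14 (limma adjusted p = 0.0249 and 0.0544 among all probe sets). The third, near the level below which probe sets were counted as dim (mean log2 5.29), gave 0.13 and 0.38 (adjusted p = 0.553 and 0.0425). Neither passed in groups 3 and 4 at day 4. There the second gave 0.65 and 0.67 (limma adjusted p = 0.211 and 0.186) and the third 0.17 and 0.15 (adjusted p = 0.542 and 0.546).

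Sgk1, the kinase, was higher than in group 2 in groups 1 and 4 at day 4. The rats of group 2 at day 4 were close together, at 8.92, 9.07, 9.12, 9.43 and 9.43 on the log2 scale. Those of group 1 were spread over 9.20, 10.18, 10.68, 11.51 and 11.52, and those of group 4 over 9.63, 9.79, 9.98, 10.05 and 10.65. All rats of group 4 and 4 of 5 rats of group 1 were above group 2. The differences were 1.42 in group 1 (standard error 0.38, limma adjusted p = 0.0243) and 0.83 in group 4 (standard error 0.17, adjusted p = 0.0267), the latter lost in the fit shared by all groups (adjusted p = 0.238). In group 3, where the rats had 9.38, 10.40, 10.45, 10.60 and 10.69, the difference of 1.11 had an adjusted p of 0.112, which became 0.00152 without replicate 1, the rat at 9.38. It also passed after a further quantile normalization (adjusted p = 0.0881) and with array weights (adjusted p = 0.0407). In group 5 the difference was 0.39 (standard error 0.21, limma adjusted p = 0.354).

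At day 14 none of the differences of Sgk1 from group 2 passed. In group 2, 219 of all 14217 genes had no overlap between the days. For Sgk1, group 2 itself had rats at 9.64, 9.70, 10.22, 10.49 and 11.40, all above the group 2 rats of day 4. The differences from group 2 were 0.05, −0.32, −0.58 and −0.72 in groups 1, 3, 4 and 5, with limma adjusted p of 0.283 to 0.958. Without group 5 replicate 2, a rat at 10.94, the difference in group 5 passed (adjusted p = 0.0514).

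Dusp1, the phosphatase, had the largest spread within groups, with a pooled SD of 0.75, larger than that of 99.5% of all genes. At day 4 the rats of group 1 had 9.54, 11.03, 11.46, 11.68 and 12.05, against 8.90, 9.14, 9.16, 10.13 and 10.15 in group 2. All but 1 of the fed rats were above group 2, by 1.66 on average (standard error 0.43, limma adjusted p = 0.0221), or 3.15-fold. A second probe set gave 1.80 (limma adjusted p = 0.0214 among all probe sets). In the restricted groups the differences at day 4 fell between 0.62 and 1.17 and did not pass, except that group 3 passed without its replicate 1 (limma adjusted p = 0.0776). At day 14 they were 0.22 to 0.91, and none passed. In group 4 at day 14 the difference of 0.83 (limma adjusted p = 0.152) passed without group 2 replicate 1 or without group 4 replicate 5.

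Markers of other cells were counted in the same comparisons. In group 1, 3 of 10 stellate cell and fibroblast markers were higher at day 4, where 21.3% of all genes were called. Hsd11b1, Sgk1 and Dusp1 were the genes described here that were higher in that comparison. At day 14, 4 were higher and 1 lower, where 13.2% of all genes were called, Nr3c1 was higher and Fkbp5 lower. Their summed intensity was 3328 to 5965 at day 4 and 3633 to 4851 at day 14, against 2154 to 3599 and 2416 to 3482 in group 2.

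Of 4 erythroid markers, 2 were lower in groups 4 and 5 at day 14, where 12.8% and 19.8% of all genes were called. Their sums were 3740 to 9593 in group 4 and 1251 to 3503 in group 5, against 7389 to 10665 in group 2. The same count, 2 of 4, was lower at day 14 than at day 4 in groups 4 and 5, where Tsc22d3 and Klf9 were called (5.47% and 6.71% of all genes), and in group 5 against group 3 at day 14 (9.55% of all genes), where Fkbp5 and Klf9 were called. In the last comparison 2 of 3 neutrophil markers were also lower, with sums of 89 to 104 in group 5 and 117 to 141 in group 3. In group 5 at day 14, 2 of 10 T and NK cell markers were lower than in group 2, a share near that of all genes, with sums of 683 to 787 against 746 to 901. The erythroid, neutrophil and T and NK cell lists each held 1 marker that was never above the dim level (the 25th percentile of all values). Of 9 hepatocyte markers, 1 was higher and 2 were lower in group 5 at day 14, with sums of 164397 to 171109 against 171394 to 178404. The part of these cells in the differences of the receptor and its targets was not tested.

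Of 15 measured circadian clock genes, 9 were higher and 4 lower in both group 4 and group 5 at day 4, where 5.43% and 7.14% of all genes were called. At day 14, 9 were higher and 3 lower in both, where 12.8% and 19.8% were called. In group 3, none was called at day 4 (0.253% of all genes), while 7 were higher and 3 lower at day 14 (6.54% of all genes). Between the days, 8 were higher and 3 lower at day 14 in group 3 (12.8% of all genes), 4 and 1 in group 4 (5.47%), and 5 and 0 in group 5 (6.71%). In group 5 against group 3, 2 were higher at day 4 (0.83% of all genes) and 4 at day 14 (9.55%). In group 5 at day 14, Dbp, a clock output factor, was higher by 3.51 than in group 2 and Bmal1, a core activator of the clock, lower, at −2.80 (limma adjusted p = 3.57e-07 and 1.38e-05). The summed intensity of the clock genes at day 14 was 9142 to 11146 in group 5 and 5257 to 6225 in group 2. One of them, Per1, is also in the list of induced genes below. The part of the clock in the values of Klf9, Nr3c1 and the other genes was not tested.

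The comparison of day 14 with day 4 within a group asked whether the genes kept changing. In group 1, 0 of the 7 genes were called, with 0% of all genes called, and in group 2, 0 with 0.00703% called. At an unadjusted p under 0.05 the counts were 0 and 1, the latter being Sgk1 in group 2, with a difference of 1.10 (standard error 0.28, limma adjusted p = 0.337). In group 3, 1 gene was higher at day 14, with 12.8% of all genes called, in group 4, 1, with 5.47% called, and in group 5, 1, with 6.71% called.

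Tsc22d3 was the gene called in groups 3 and 4. In group 4, 658 of all 14217 genes had no overlap between the days. For Tsc22d3 the day 4 rats of group 4 had log2 intensities of 8.94, 9.43, 9.63, 9.75 and 9.92. All day 14 rats, from 10.25 to 11.59, were above them. The difference was 1.47 (standard error 0.23, limma adjusted p = 0.0121), or 2.77-fold, and it was kept without any 1 rat. In group 3 it was 0.77 (standard error 0.26, limma adjusted p = 0.0976), which ended without any 1 of replicates 2, 3, 4 and 5 of day 4 and replicates 1, 2 and 5 of day 14 (adjusted p up to 0.191). It also ended under 5 of the other settings at the same threshold (adjusted p up to 0.259). In group 5 it was 0.61 (standard error 0.27, limma adjusted p = 0.246), which passed without replicate 4 of day 4 (adjusted p = 0.0879).

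Klf9 was the gene called in group 5, where 792 of all 14217 genes had no overlap between the days. For Klf9 all rats of day 14 were above all rats of day 4. The difference was 0.34 (standard error 0.08, limma adjusted p = 0.0419). It did not pass without replicate 3 of day 4 (adjusted p = 0.107) or in the fit shared by all groups (adjusted p = 0.179). Nr3c1 differed between the days by −0.08 to 0.16 in the 5 groups, and Hsd11b1 by −0.28 to 0.13, with limma adjusted p of 0.185 or more for both genes.

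Whether the change from group 2 differed between the days was tested directly as an interaction. None of the 7 genes passed in groups 1, 3, 4 or 5, where 0%, 0.591%, 0.134% and 2.04% of all genes were called. At an unadjusted p under 0.05 there were 2, 2, 1 and 1 genes, and Sgk1 was among them in each group. For Sgk1 the change at day 14 less that at day 4 was −1.38, −1.43, −1.41 and −1.11 (standard errors 0.55, 0.45, 0.42 and 0.49) in groups 1, 3, 4 and 5, with limma adjusted p of 0.713, 0.228, 0.224 and 0.335. The 4 values share the same rats of group 2, in which Sgk1 was higher at day 14. The second gene was Hsd11b1, with −0.41 in group 1 and −0.33 in group 3 (limma adjusted p = 0.778 and 0.236).

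A comparison of group 5 with group 3 tested 60% against 15% less food without the use of group 2. At day 4, 0 of the 7 genes passed, with 0.83% of all genes called and 3 of the 7 at an unadjusted p under 0.05. These were Fkbp5 (1.03, standard error 0.28, limma adjusted p = 0.169), Tsc22d3 (0.79, standard error 0.30, adjusted p = 0.293) and Sgk1 (−0.72, standard error 0.27, adjusted p = 0.297). Without group 5 replicate 1, Fkbp5 passed at day 4 (limma adjusted p = 0.0576).

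At day 14, 2 of the 7 genes were higher in group 5 than in group 3, with 9.55% of all genes called. In this comparison 1012 of all 14217 genes had no overlap. Klf9 had rats at 11.79, 11.80, 12.01, 12.03 and 12.09 in group 3, all below the lowest of group 5 at 12.19. Its difference was 0.39 (standard error 0.08, limma adjusted p = 0.0246), and the call was lost in the fit shared by all groups (adjusted p = 0.103). Fkbp5 had rats at 7.35, 7.45, 7.51, 7.62 and 9.12 in group 3, so that 4 rats were low and replicate 1 was within the range of group 5. The difference was 1.24 (standard error 0.34, limma adjusted p = 0.0566), and it became 1.57 (adjusted p = 0.00793) without that rat. The call ended without any 1 of group 3 replicates 2 to 5 or group 5 replicate 5 (adjusted p up to 0.134) or with robust empirical Bayes estimates (adjusted p = 0.106). Tsc22d3 differed by 0.63 (standard error 0.23, limma adjusted p = 0.14), and passed without group 3 replicate 1 (adjusted p = 0.0351).

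Other genes of the pathway were counted from lists written by hand with earlier results of these data known, so the counts are a description. Of 10 measured chaperones and co-chaperones of the receptor, 5 were lower in group 1 and 5 in group 4 at day 4, where 21.3% and 5.43% of all genes were called. In group 5, 2 were lower at day 4 and 2 at day 14, where 7.14% and 19.8% of all genes were called, so that the share at day 14 was near that of all genes. The median difference in group 5 was −0.14 and −0.07. At day 14, 3 were lower in group 1 (13.2% of all genes) and 1 in group 4 (12.8%). In group 3 none was called at day 4 (0.253%), and 1 was higher and 1 lower at day 14 (6.54%). Fkbp4, the co-chaperone that competes with Fkbp5 and promotes the receptor's movement to the nucleus, fell in group 5 by 0.69 after 4 days and by 0.94 after 14 days (standard errors 0.11 and 0.15, limma adjusted p = 0.00648 and 0.0013). It also fell in group 4, by 0.80 and 0.59, and in group 1 it differed by −0.01 and 0.10 (limma adjusted p = 0.937 and 0.692). Hsp90ab1, a chaperone that holds the receptor ready for hormone, fell in group 5 by 0.48 after 4 days (standard error 0.07, limma adjusted p = 0.00337) and by 0.67 in group 1 (standard error 0.07, adjusted p = 7.88e-05). Hsph1 and Stip1 fell in group 4 at day 4, by 0.86 and 0.33 (limma adjusted p = 0.025 and 0.0945).

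**Figure D3:**
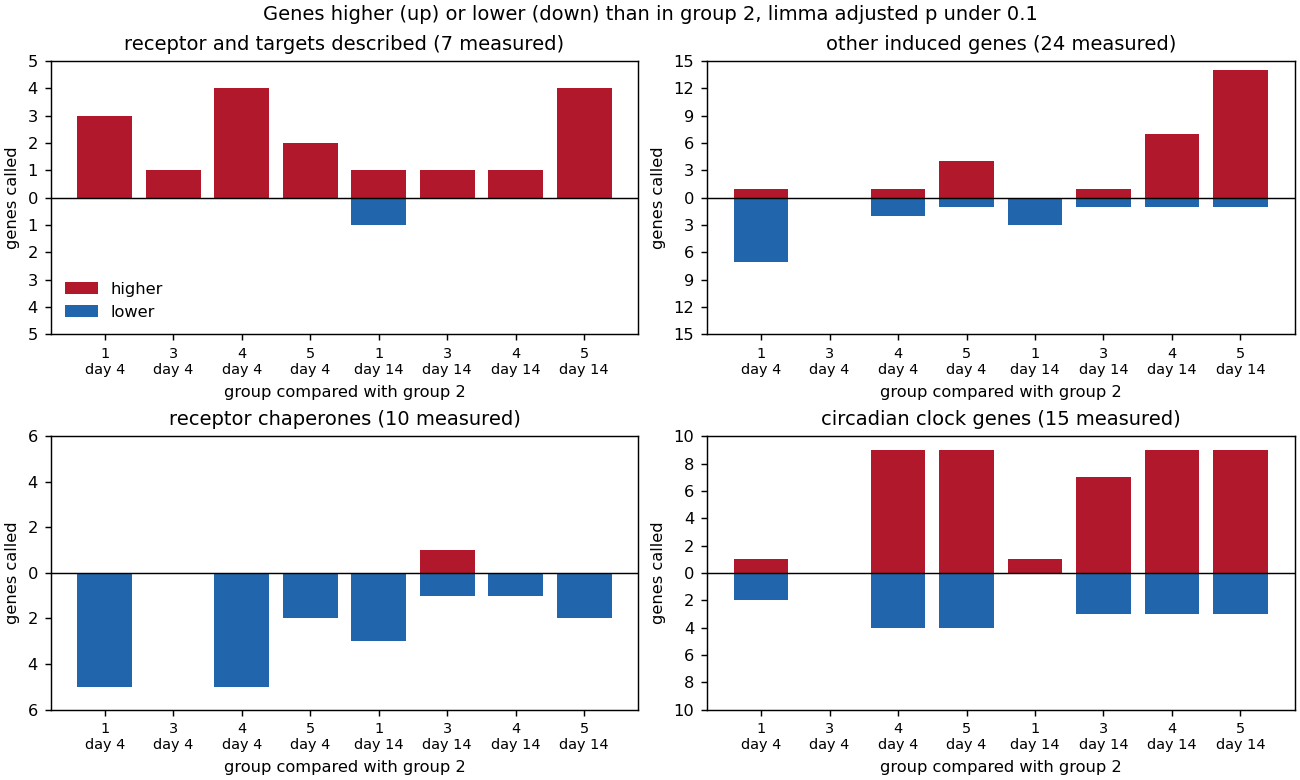
Number of genes called higher (red, above 0) or lower (blue, below 0) than in group 2 of the same day (vertical axis) in each of 8 comparisons (horizontal axis), for the 7 genes described, 24 other induced genes, 10 receptor chaperones and 15 clock genes. Other induced genes reach 14 higher in group 5 at day 14.

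The 24 other genes that glucocorticoids are known to induce were also listed with earlier results of these data known. In group 5 at day 14, 14 rose and 1 fell, with a median difference of 0.33, where 19.8% of all genes were called. In group 4 at day 14, 7 were higher and 1 lower (12.8% of all genes), and in group 3, 1 was higher and 1 lower (6.54%). At day 4 the counts were 4 higher and 1 lower in group 5 (7.14% of all genes), 1 and 2 in group 4 (5.43%), and none in group 3 (0.253%). In fed group 1, 1 was higher and 7 lower at day 4 (21.3% of all genes). At day 14, 3 were lower there, a share near the 13.2% of all genes. Lpin1, a phosphatidate phosphatase of lipid synthesis, rose by 2.32 in group 5 at day 14 (standard error 0.31, limma adjusted p = 0.000505) and by 1.81 in group 4. Igfbp1, a fasting-induced binding protein of insulin-like growth factors, rose by 1.45 in group 5 at day 14 (standard error 0.30, limma adjusted p = 0.0064) and fell by 2.45 in group 1 at day 4. Ddit4, an inhibitor of mTORC1, rose by 1.65 in group 5 at day 14 (limma adjusted p = 0.031). Cdkn1a, a cell cycle inhibitor, was the lower one in groups 3, 4 and 5 at day 14 and fell by 1.69, 1.43 and 1.35. Several of these genes also respond to insulin, glucagon or the clock.

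Of 8 measured genes of corticosterone supply and clearance, 2 rose and 1 fell in group 5 at day 14, where 19.8% of all genes were called. Serpina6, the plasma carrier of corticosterone made by the liver, fell by 0.65 there (standard error 0.20, limma adjusted p = 0.0487). Hsd11b2, which inactivates corticosterone, rose by 0.76 and 0.85 in groups 3 and 4 at day 14 (limma adjusted p = 0.00349 and 0.000149), while its difference in group 5 was 0.24 (adjusted p = 0.413). Abcb1a, an efflux pump, rose by 0.80 in group 4 at day 4 (limma adjusted p = 0.051), and Akr1d1, a steroid reductase, rose by 0.36 in group 4 at day 14 (adjusted p = 0.0778). Of 11 coregulators, the corepressor Ncor1 fell by 0.30 at day 4 and 0.25 at day 14 in group 5 (limma adjusted p = 0.0172 and 0.0438). The coactivator Ep300 rose by 0.31 in group 5 at day 14 (limma adjusted p = 0.0554). In group 5, 7.14% of all genes were called at day 4 and 19.8% at day 14. Ncor1 and Ep300 were named for the size of their change among those called. Counts of the coregulators in group 5 are not given here, so the named genes show no direction of the list. In group 1 at day 4, 1 of the 11 was higher and 3 were lower, where 21.3% of all genes were called. None of 10 genes that glucocorticoids repress was called in groups 3, 4 or 5 on either day, where 0.253% to 19.8% of all genes were called.

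The members were then compared among rats of the same group, where diet and day are held constant. For each gene the mean of the group and day was subtracted, and the deviations of 49 rats were correlated over 21 pairs of genes, with p from 100000 permutations of rats within each group and day (2-sided, Benjamini-Hochberg over the pairs). Of these, 6 pairs had an adjusted p under 0.05 by Pearson's r and 2 by Spearman's rho. The deviations of 2 genes in 1 rat come from the same array, so that they share its RNA and its technical errors.

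Nr3c1 and Fkbp5 ran opposite to each other, the only pair whose call was kept by rank, in the fasted groups alone and after a further quantile normalization. Rats with more receptor mRNA than their group had less Fkbp5, with r = −0.49 (permutation p = 0.00106, adjusted p = 0.019) and rho = −0.49 (permutation p = 0.00135, adjusted p = 0.0234). The sign was positive within 2 of the 10 groups. Without the 2 rats farthest from the median of Nr3c1, r was −0.46, and it was −0.71 among the 25 rats of day 4 and −0.23 among the 24 rats of day 14, a difference between days that was not tested. Of all genes, 0.218% had an r with Nr3c1 as far below 0. Among the measured receptor chaperones, r with Nr3c1 ran from −0.48 for Fkbp4 to 0.27 for St13, values that were not tested. Across the 10 group means the pair did not run opposite, with r = 0.17.

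Tsc22d3 and Klf9 ran together, with r = 0.50 (permutation p = 0.0051, adjusted p = 0.0332) and rho = 0.50 (permutation p = 0.00223, adjusted p = 0.0234), positive within 9 of 10 groups. Without the 2 rats farthest from the median of Tsc22d3, r fell to 0.39, and it was 0.66 at day 4 and 0.35 at day 14. The call ended in the fasted groups alone (r = 0.35) and after a further quantile normalization (r = 0.48). Fkbp5 and Tsc22d3 had r = 0.45 (permutation p = 0.00181, adjusted p = 0.019), positive within all 10 groups, but rho = 0.40 did not pass (adjusted p = 0.0551). Their r was 0.43 at day 4 and 0.47 at day 14, and 0.43 without the 2 rats farthest from the median of Fkbp5. Of all genes, 1.07% had an r with Tsc22d3 as large as Klf9 had, and 1.41% had an r with Fkbp5 as large as Tsc22d3 had.

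**Figure D4:**
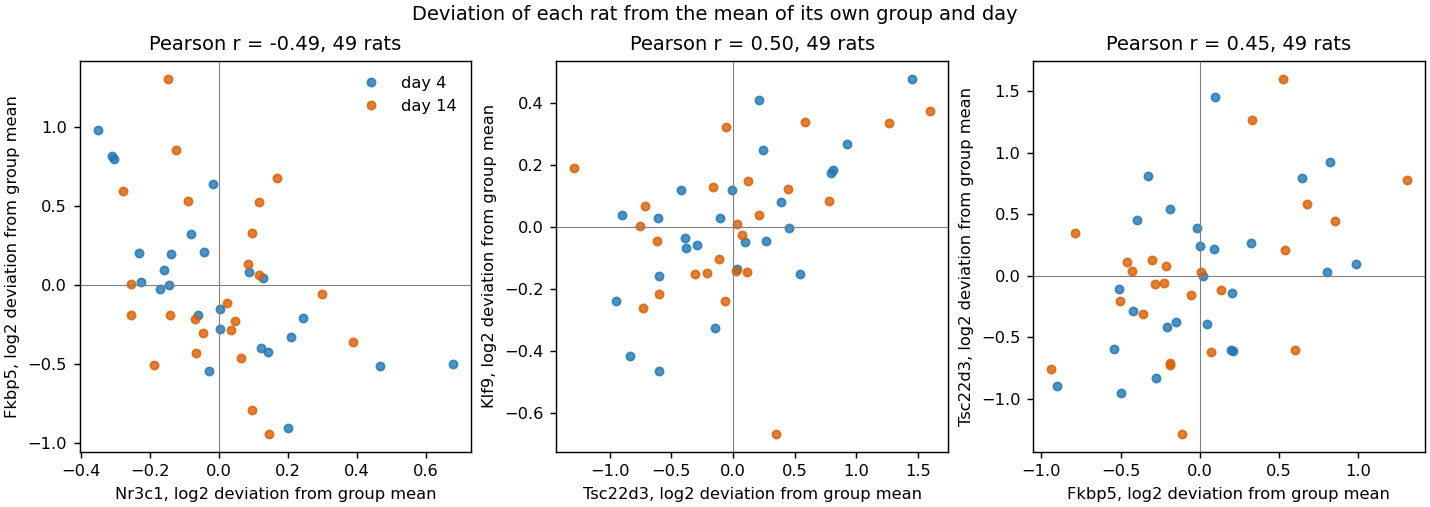
Log2 deviation of each of 49 rats from the mean of its own group and day, for 3 pairs of genes, with Nr3c1 against Fkbp5 on the left, Tsc22d3 against Klf9 in the middle and Fkbp5 against Tsc22d3 on the right (blue, day 4; orange, day 14). The first cloud slopes down with r = −0.49, and the other two slope up with r = 0.50 and 0.45.

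Sgk1 ran with Hsd11b1 (r = 0.40, permutation p = 0.00632, adjusted p = 0.0332), Dusp1 (r = 0.43, permutation p = 0.0103, adjusted p = 0.0423) and Nr3c1 (r = 0.42, permutation p = 0.0121, adjusted p = 0.0423). None of these 3 pairs passed by rank, with rho of 0.40, 0.33 and 0.34 and adjusted p of 0.0552, 0.115 and 0.102. Without the 2 rats farthest from the median, r was 0.46 for Hsd11b1 and Sgk1, 0.28 for Sgk1 and Dusp1, and 0.33 for Nr3c1 and Sgk1. By day the r values were 0.32 and 0.45, 0.46 and 0.40, and 0.47 and 0.38 for the same pairs at day 4 and day 14. Of all genes, 4.12%, 2.71% and 2.87% had an r with Sgk1 as large as Hsd11b1, Dusp1 and Nr3c1 had. With Fkbp5, Tsc22d3 and Klf9, Sgk1 had r of −0.25, −0.09 and −0.00048, and none passed (permutation adjusted p of 0.225 or more).

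Genes whose 10 group and day means were most like those of each gene were named by Pearson's r, as a description over 10 points. Klf9 was most like Sds (r = 0.98), the serine dehydratase of amino acid breakdown, Igfbp4 (0.97) and Tns2 (0.97). Tsc22d3 was most like Cebpb (0.98), a transcription factor that is itself in the list of induced genes, Polr1h (0.98) and Csrp2 (0.98). Dusp1 was most like Jun (0.93), an immediate early gene, Adamtsl5 (0.93) and Tmem38a (0.90). Fkbp5 was most like Lenep (0.98), Slc27a5 (0.96), the bile acid CoA ligase, and Gapvd1 (0.95). Nr3c1 was most like Smap2 (0.92), Dgcr6 (0.92) and Spata2 (0.91), whose own means span only 0.14 to 0.33 on the log2 scale. Sgk1 was most like Nme4 (0.92), Atxn7l1 (0.91) and C4bpa (0.90), and Hsd11b1 most like Ncam1 (0.88), Igsf3 (0.86) and Styxl1 (0.86).

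Among the members, the means of Fkbp5 ran with those of Tsc22d3 (r = 0.81) and Klf9 (0.77), while those of Sgk1 ran opposite to Fkbp5 (−0.52) and Klf9 (−0.40). These values have no test, since the 10 points include the groups already compared.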

How the data were processed

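Livers of 49 rats were each measured on 1 Affymetrix Rat Genome 230 2.0 array. The authors deposited normalized intensities (RMA, with R 3.0.1 and affy 1.38.1 per the submitters' processing notes, which also name Affymetrix Expression Console) on a linear scale, as whole numbers from 8 to 33095. Rounding makes 1 step worth 0.0458 on the log2 scale at the dim level (log2 4.95, the 25th percentile of all values). RMA equalizes the distributions of the arrays, so a shift of all genes together could not be seen.

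Here log2 was taken. Of 31042 probe sets, 20826 carried 1 gene symbol in the platform annotation, 436 several and 9780 none, which left 14217 genes with 1 probe set each, that with the highest mean. The gene identifiers of 20758 probe sets were in the RefSeq table, and no symbol had changed. No arrays were identical. Zbtb16 had no probe set.

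Each comparison was fitted on its own groups with limma 3.58.1 in R 4.3.3, with Benjamini-Hochberg adjustment over all 14217 genes and calls at an adjusted p under 0.1. The log-normal empirical Bayes model of the methods was not run, since its package was not installed here. Scripts ran in Python 3.11.15 (numpy 2.4.6, pandas 2.3.3, scipy 1.17.1, matplotlib 3.10.9), and the tests were tested on simulated data. Replicates were separate animals by their labels, and replicate numbers only name rats and pair none. The methods have rats kept in groups or pairs, and the labels give no cage. All tests thus treat rats as independent. The precision is limited by the number of arrays.

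The members and lists were chosen with earlier results of these data known. All members were named in each comparison. Counts of the other lists are given for some lists and comparisons only. From each of these lists at most 4 genes with the largest change among those called in groups 4 or 5 were named. For each member the 3 genes with the most similar group means were named.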

Additional observations from a re-analysis of the deposited data

Results flagged for a closer look

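In 5 of 70 sets of rats (7 genes in 10 groups), 1 rat lay far from the others by Dixon's criterion, which chance alone gives in about 1 in 20 sets. Nr3c1 in group 1 at day 4 was 10.45 in replicate 1 and 9.53 to 9.63 in the others. Nr3c1 in group 2 at day 14 was 9.14 in replicate 1 and 9.44 to 9.53 in the others. Hsd11b1 in group 1 at day 4 was 13.74 in replicate 4 and 13.38 to 13.49 in the others. Fkbp5 in group 3 at day 14 was 9.12 in replicate 1 and 7.35 to 7.62 in the others. Sgk1 in group 3 at day 4 was 9.38 in replicate 1 and 10.40 to 10.69 in the others.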

How the results depend on the processing

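Against group 2 there were 18 calls, and 13 to 19 under 8 alternatives (an adjusted p under 0.05, a single fit of all group means, dim genes left out, all probe sets tested, the mean of a gene's probe sets, a further quantile normalization, array weights and robust empirical Bayes estimates), with 13 to 18 of the original calls kept and up to 3 gained. There were 15 to 20 when each rat was left out. The 3 calls between days became 1 in the single fit, and were 2 to 4 without 1 rat. The interaction gave 0 calls under every alternative, and 0 to 0 without 1 rat. The 2 calls of group 5 against group 3 became 1 at an adjusted p under 0.05, 1 in the single fit and 1 with robust estimates, and were 1 to 3 without 1 rat. The 6 pairs of covarying genes became 2 by Spearman's rho, 3 in the fasted groups alone and 2 after a further quantile normalization. Over single genes, comparisons and pairs, 342 values were called both in the main setting and in an alternative, 88 lost and 18 gained a call, and none that was called changed sign. Of 2223 values called under neither setting, 80 had the other sign. The causes of these changes were not tested, except that a stricter threshold removes calls by construction.

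No paired analysis was possible because the labels give no replicate numbers that groups share. With 4 or 5 rats a group, a difference that did not pass is not shown to be absent.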
